A study of Homo sapiens with 24 samples.

Results

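The genes described here are the estrogen receptors and the genes best known as estrogen targets, 9 in all, read on expression arrays of 2 human B-lymphoblastoid cell lines. They were chosen by symbol, as every probe set that the array annotation gives to ESR1, ESR2, ESRRA, PGR, GREB1, TFF1, PDZK1, IGFBP4 or CA12. This gave 10 of the 21214 probe sets with a gene symbol, since ESR1 had 2. In the whole series 18417 genes had a probe set of their own, a count without PDZK1, whose only probe set is shared. All 9 genes were found, no filter on low signals was applied, and 7 genes had 1 probe set of their own. The PDZK1 probe set is shared with the pseudogene PDZK1P1, so its values cannot be assigned to either, and it is written PDZK1/PDZK1P1 below. The second ESR1 probe set is called so below.

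GM10861 and GM10855 are HapMap lines, that is, donor B cells made to grow without limit by Epstein-Barr virus. Each line was exposed for 36 h to calcitriol together with estrogen, to estrogen, or to calcitriol, or was left untreated and taken at 0 h. This made 8 groups of 3 arrays, 24 in all. The replicate numbers used below to name an array follow the sample list and pair no arrays. Calcitriol is the hormonal form of vitamin D. Which estrogen was used, at what dose, with what vehicle, the sources used here do not say. They also leave unsaid whether the 3 arrays per group are separate cultures, so the p-values reflect a spread among arrays that may be only technical. With 1 line per genotype, a difference between GM10861 and GM10855 is one between these lines only.

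ESR1 and ESR2 encode the nuclear estrogen receptors alpha and beta, which on binding estrogen attach to DNA as dimers and recruit coactivators. ESRRA encodes the estrogen-related receptor alpha, an orphan receptor that resembles them but does not need estrogen and drives genes of mitochondrial energy metabolism. In breast cancer cells with ESR1, estrogen raises PGR, GREB1, TFF1, PDZK1, IGFBP4 and CA12. The study's comparisons ask what each agent does to gene expression, alone and on top of the other.

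The arrays correlated at 0.985 to 0.993 within a group and at 0.978 to 0.984 between the lines, and no pair was identical (0 pairs). As log2 signals, the lower quartile of an array was 3.97 to 4.08, the median 5.38 to 5.50 and the upper quartile 6.79 to 6.96. Of the 8 measured B cell markers, 6 lay above the upper quartile on all 24 arrays and all 8 above the median. Of the 9 measured epithelial markers, 0 lay above the upper quartile and 1 above the median on all arrays. Calcitriol raised its known targets CAMP (log2 change 2.46) and CYP24A1 (2.06) against untreated cells. No such check was at hand for estrogen, where limma called 0 of 21214 probe sets against untreated cells.

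ESR1 gave a low signal in every group. In GM10861 its 3 arrays read 4.42, 4.21 and 4.50 with both agents, 4.32, 4.50 and 4.60 with estrogen, 4.33, 4.24 and 4.45 with calcitriol, and 4.17, 4.45 and 4.47 untreated (log2 signals throughout). In GM10855 they read 4.52, 4.51 and 4.36 with both agents, 4.29, 4.82 and 4.25 with estrogen, 4.53, 4.46 and 4.51 with calcitriol, and 4.64, 4.67 and 4.53 untreated. Every group overlapped its neighbour in the order of the 8 group means, of which the lowest was 4.34 ± 0.107 in calcitriol-treated GM10861 and the highest 4.61 ± 0.075 in untreated GM10855 (SD, n = 3 each). The highest and the lowest array of GM10855, 4.82 and 4.25, were both estrogen arrays. The gene stood between percentiles 27.9 and 37.5 of all probe sets of an array. The second ESR1 probe set stood between percentiles 28.1 and 35.7 and ranged from 4.19 to 4.72. No detection limit came with the values, so whether such signals exceed background was not tested.

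With estrogen, ESR1 differed by -0.024 ± 0.0862 on the log2 scale from untreated cells, averaged over both lines (SE, adjusted p = 0.997 in limma, higher in 3 of 6 estrogen arrays than that line's untreated mean). Its 95% interval ran from -0.20 to 0.15. Estrogen added to calcitriol, a comparison in which both groups were taken at 36 h, gave 0.0013, with an interval from -0.18 to 0.18. The second ESR1 probe set gave 0.07 and 0.11 in these comparisons (adjusted p = 0.982 and 0.681). Its largest difference was in GM10855, where the arrays read 4.42, 4.72 and 4.46 with both agents and 4.37, 4.35 and 4.19 with calcitriol. Those groups did not overlap, and the difference was 0.23 with an unadjusted p of 0.0193 and an adjusted p of 0.273. Non-overlap in that comparison occurred in 17.4% of all probe sets. The same comparison within GM10855 called 11 probe sets over the whole table, and 0 to 145 when 1 array was left out. None of the 11 was a member (0 of 10). The first ESR1 probe set did not show it, with 4.52, 4.51 and 4.36 against 4.53, 4.46 and 4.51.

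ESR2 was the one member called by the F test over the 8 groups, 1 of 10 probe sets against 29.3% of all probe sets. It too was a low signal, between percentiles 33.5 and 47.5 of an array and so below the median on every array. Its mean was lower in GM10861 than in GM10855 with every agent and untreated, and no difference between agents was called. In GM10861 it read 4.92, 4.53 and 4.74 with both agents, 4.63, 4.63 and 4.58 with estrogen, 4.81, 4.66 and 4.82 with calcitriol, and 4.68, 4.76 and 4.80 untreated. In GM10855 it read 5.32, 5.12 and 4.88 with both agents, 5.09, 5.09 and 5.25 with estrogen, 5.10, 5.17 and 5.14 with calcitriol, and 5.05, 5.09 and 5.25 untreated. All 4 GM10855 means lay above all 4 GM10861 means, and only 1 pair of neighbours in that order did not overlap, GM10855 with both agents (5.11 ± 0.221) and GM10861 with calcitriol (4.76 ± 0.0899, SD, n = 3 each). Over the 12 arrays of each line ESR2 averaged 4.71 ± 0.115 in GM10861 and 5.13 ± 0.114 in GM10855 (SD). Of the GM10861 arrays, 11 of 12 lay below the lowest GM10855 array.

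The line difference of ESR2, GM10861 minus GM10855, was -0.42 ± 0.0506 (SE, 95% interval -0.52 to -0.31, adjusted p = 2.77e-07 in limma). It was -0.38 with both agents, -0.53 with estrogen, -0.37 with calcitriol and -0.39 untreated. The 3 arrays of the lines overlapped with both agents and did not in the other groups. The share of all probe sets without such overlap was not counted by agent, so how usual this separation is cannot be said. The share called between the lines by limma, 41.8%, is averaged over the agents and does not measure overlap. The F test over the 8 groups gave ESR2 an adjusted p of 9.11e-05, with 29.3% of all probe sets called by that test. In RNA of a whole culture, fewer cells that express a gene and less RNA of it per cell cannot be told apart. With estrogen at 36 h against untreated cells at 0 h, ESR2 differed by -0.059 (95% interval -0.21 to 0.089, adjusted p = 0.983 in limma). With estrogen added to calcitriol, both at 36 h, it differed by -0.032 (interval -0.18 to 0.12). In GM10861 alone the 3 estrogen arrays lay below the 3 untreated arrays, and 11.5% of all probe sets had groups that did not overlap there.

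The genes whose 8 group means were most like those of ESR2 were PIK3IP1, a negative regulator of PI3 kinase (Pearson r = 0.998), TP53INP1, a stress-induced p53 cofactor (0.991), and LNX1, a ubiquitin ligase (0.99). All 3 were lower in GM10861 than in GM10855, for example 5.63 against 6.10 for PIK3IP1. These are the highest of 16702 genes compared over 8 means that share the same 2 lines, and 932 genes exceeded an r of 0.9.

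**Figure D1:**
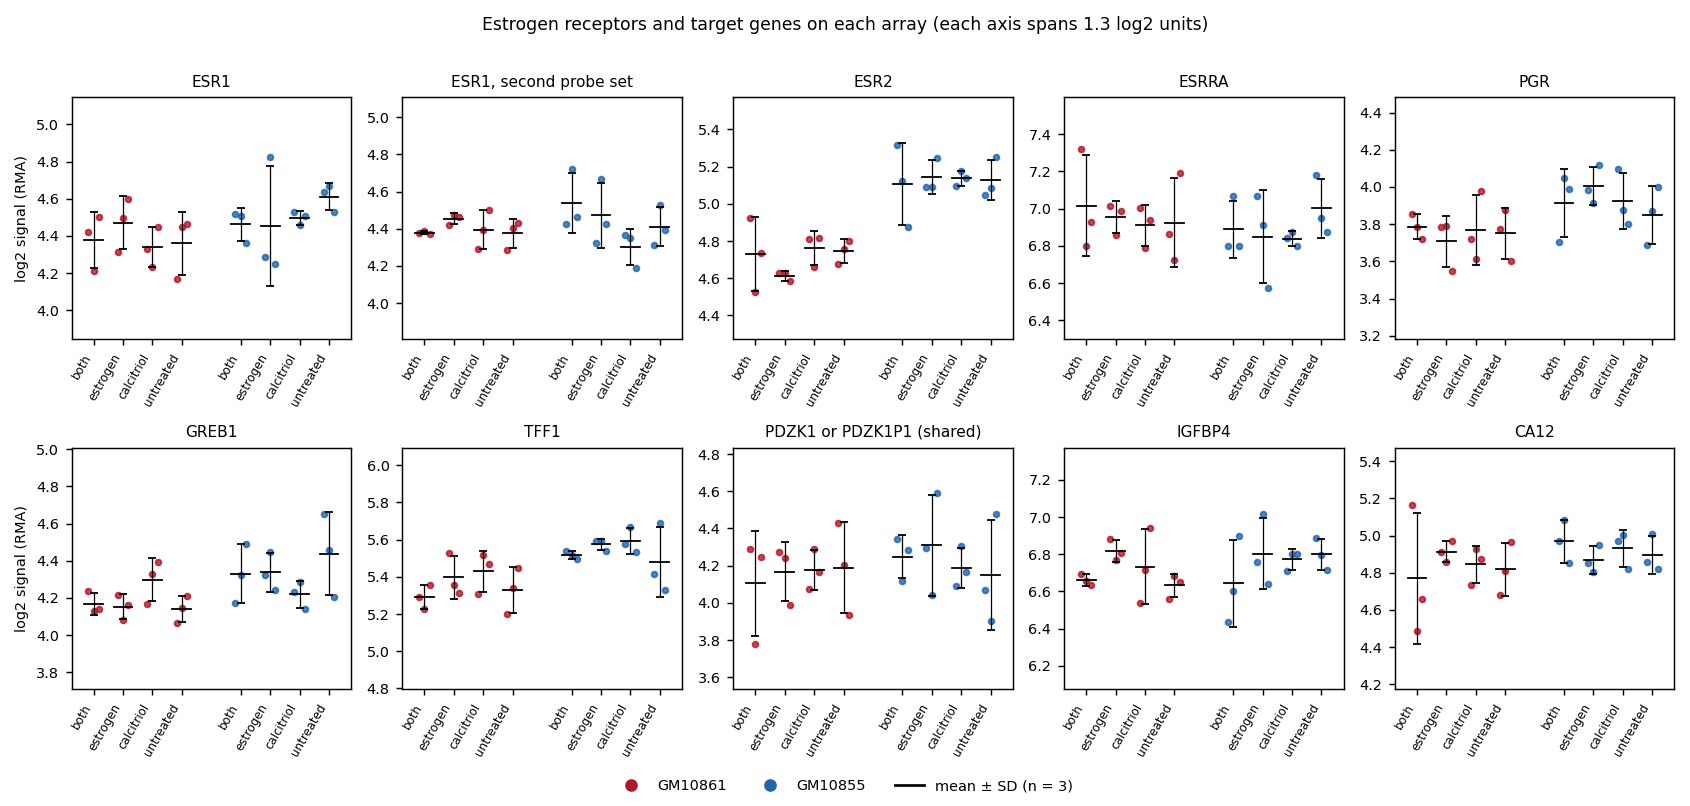
Log2 signal of each of the 10 probe sets on the 24 arrays, 1 panel per probe set. Points are arrays, in the order both agents, estrogen, calcitriol and untreated, with GM10861 (red) left of GM10855 (blue), and lines with bars give the mean and SD of 3 arrays. For ESR2 the 4 GM10861 means lie below the 4 GM10855 means, with arrays of the 2 lines overlapping (4.92 in GM10861 and 4.88 in GM10855), while each other panel shows group means within 0.30 of each other.

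The ESR2 promoter is shown because ESR2 was the one member called by the F test over the 8 groups. An intact estrogen response element was looked for in the members' promoters where a sequence was at hand. The stretch is the 250 bases before the start of 1 ESR2 transcript in RefSeq, on the minus strand of GRCh38.p14, with the 6 matches to the GC box (GGGCGG, either strand) in capitals.

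ESR2, chr14:64338614-64338863: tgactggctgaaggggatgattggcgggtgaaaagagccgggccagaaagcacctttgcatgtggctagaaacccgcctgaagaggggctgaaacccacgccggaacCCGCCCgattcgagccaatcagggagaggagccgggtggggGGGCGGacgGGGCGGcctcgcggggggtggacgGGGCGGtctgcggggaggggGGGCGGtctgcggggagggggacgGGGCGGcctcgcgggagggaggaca

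RefSeq start windows, 250 bases before to 50 after a start, were found for 7 of the 9 genes, 19 windows in all. GREB1 and TFF1 had no window, so their promoters were not searched. The palindrome GGTCANNNTGACC, the consensus estrogen response element, occurred in 0 of the 19, and in 20 of 35116 windows of all genes (0.057%). Its half-site GGTCA, on either strand, occurred in 9 of the 19 windows, of CA12, ESR1, ESR2, PDZK1 and PGR, against 37.4% of all windows. Windows of PDZK1, PGR and ESR2 overlap in part, so the same site is counted more than once. A single half-site of 5 letters is thus common in promoters at large. The GC box occurred in 10 of the 19 and in 45% of all. Such matches describe letters and not bound sites. The half-sites of 3 target genes are given below, with 10 bases on either side and the half-site in capitals. Imperfect response elements were not looked for.

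PGR, chr11:101129229-101129253: gggcaggagcTGACCagcgccgccc
PDZK1, chr1:145707454-145707478: gcaggacagaGGTCActtgaattca
CA12, chr15:63382028-63382052: tgtgttcctgGGTCAgccctggccc

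All 3 lie on minus-strand genes and are written 5′ to 3′ as the gene runs. Counted from the transcript's start, the printed stretch begins at -176 in PGR, -78 in PDZK1 and -206 in CA12.

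ESRRA, the orphan receptor, stood between percentiles 70.9 and 80.1 of an array, and no difference between agents or lines was called. It read 7.32, 6.80 and 6.93 with both agents, 7.02, 6.86 and 6.99 with estrogen, 7.0, 6.79 and 6.94 with calcitriol and 6.86, 6.72 and 7.19 untreated in GM10861. It read 6.80, 7.07 and 6.80 with both agents, 7.07, 6.91 and 6.57 with estrogen, 6.84, 6.88 and 6.80 with calcitriol and 7.18, 6.95 and 6.87 untreated in GM10855. Its 8 group means lay within 0.18 of each other, against a median SD of 0.157 within a group. The change was -0.061 with estrogen (95% interval -0.26 to 0.14), 0.078 for estrogen added to calcitriol (-0.12 to 0.28), -0.089 with calcitriol and 0.057 between the lines.

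Among the classic targets no change with estrogen was called, and the intervals were narrow. Median percentiles of an array were 22.3 for PGR, 27.8 for PDZK1/PDZK1P1, 28.1 for GREB1, 38.8 for CA12, 50.5 for TFF1 and 72.6 for IGFBP4. Whether the lower ones exceed background was not tested, so a narrow interval there does not show that a target failed to respond. Of the 10 probe sets of the receptors and targets, limma called 0 in estrogen against untreated and 0 for estrogen added to calcitriol, against a background of 0% of all probe sets in each. Over all probe sets, 1097 and 1772 had an unadjusted p below 0.05 (5.17% and 8.35%), and of the 10 members 0 and 0 did. Against untreated, 6 of the 10 were above 0 (median 0.045, against 0.0113 over all probe sets), and added to calcitriol 4 of 10 (median -0.0073, against 0.00188). The outermost ends of the 10 intervals were folds of 0.835 and 1.23 against untreated, and of 0.836 and 1.21 when added to calcitriol. RMA compresses the folds of dim probe sets, so these bounds are on the array scale.

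PGR encodes the progesterone receptor and is a textbook readout of estrogen action. It stood between percentiles 18.8 and 26.2 of an array. It read 3.86, 3.79 and 3.72 with both agents, 3.78, 3.79 and 3.55 with estrogen, 3.72, 3.61 and 3.98 with calcitriol and 3.77, 3.87 and 3.60 untreated in GM10861. It read 3.71, 4.05 and 3.99 with both agents, 3.98, 3.91 and 4.12 with estrogen, 4.10, 3.87 and 3.80 with calcitriol and 3.69, 3.87 and 4.0 untreated in GM10855. The agents overlapped within each line. The change was 0.055 with estrogen (95% interval -0.11 to 0.22, adjusted p = 0.988 in limma) and 0.0032 for estrogen added to calcitriol (-0.16 to 0.17).

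GREB1 encodes an estrogen-induced coactivator of ESR1 in breast cells. It read 4.23, 4.13 and 4.14 with both agents, 4.21, 4.08 and 4.16 with estrogen, 4.17, 4.33 and 4.39 with calcitriol and 4.07, 4.14 and 4.21 untreated in GM10861. It read 4.17, 4.33 and 4.49 with both agents, 4.32, 4.44 and 4.24 with estrogen, 4.23, 4.29 and 4.14 with calcitriol and 4.65, 4.46 and 4.20 untreated in GM10855. The change with estrogen was -0.044 (95% interval -0.19 to 0.10) and -0.0094 when added to calcitriol (-0.16 to 0.14). With calcitriol against untreated the lines went opposite ways, 0.16 in GM10861 and -0.22 in GM10855. The difference between those responses, 0.38 ± 0.141, had an unadjusted p of 0.0139 and an adjusted p of 0.692 in limma, and the arrays overlapped in both lines.

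TFF1 encodes a secreted trefoil peptide of mucous epithelia that estrogen raises in breast cancer cells. In GM10861 it read 5.29, 5.22 and 5.36 with both agents, 5.53, 5.35 and 5.31 with estrogen, 5.31, 5.51 and 5.47 with calcitriol and 5.20, 5.34 and 5.45 untreated. In GM10855 it read 5.54, 5.52 and 5.50 with both agents, 5.59, 5.59 and 5.54 with estrogen, 5.58, 5.67 and 5.53 with calcitriol and 5.42, 5.69 and 5.33 untreated. The arrays with both agents lay at or below the mean of each single agent in both lines. Estrogen gave 0.081 against untreated (95% interval -0.05 to 0.21, higher in 5 of 6 arrays) and -0.11 added to calcitriol (-0.24 to 0.025, higher in 0 of 6). The difference between these estrogen effects, the interaction of the agents, was -0.19 with an unadjusted p of 0.048 and an adjusted p of 0.992 in limma. Over all probe sets that test called 0, with 935 (4.41%) at an unadjusted p below 0.05.

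IGFBP4 encodes a binding protein that holds insulin-like growth factors. In GM10861 it read 6.70, 6.66 and 6.63 with both agents, 6.88, 6.77 and 6.80 with estrogen, 6.54, 6.71 and 6.94 with calcitriol and 6.56, 6.68 and 6.65 untreated. In GM10855 it read 6.43, 6.60 and 6.90 with both agents, 6.76, 7.01 and 6.64 with estrogen, 6.71, 6.80 and 6.80 with calcitriol and 6.89, 6.80 and 6.71 untreated. In GM10861 the estrogen arrays lay above all 3 untreated arrays and above all 3 with both agents, where 11.5% and 12.1% of all probe sets did not overlap. In GM10855 the groups overlapped. The change was 0.10 with estrogen (95% interval -0.064 to 0.26, adjusted p = 0.978), -0.10 for estrogen added to calcitriol (-0.26 to 0.061) and -0.16 for calcitriol added to estrogen (-0.32 to 0.0016, adjusted p = 0.637).

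CA12 encodes carbonic anhydrase XII, a membrane enzyme that interconverts carbon dioxide and bicarbonate. Its 24 arrays ran from 4.48 through a median of 4.87 to 5.16, and both ends were GM10861 arrays with both agents, 5.16, 4.48 and 4.66. Untreated arrays read 4.68, 4.81 and 4.97 in GM10861 and 4.86, 5.01 and 4.82 in GM10855, and the estrogen arrays read 4.91, 4.86 and 4.97 in GM10861 and 4.86, 4.80 and 4.95 in GM10855. The change with estrogen was 0.035 (95% interval -0.14 to 0.21) and -0.019 when added to calcitriol (-0.20 to 0.16). PDZK1 encodes a scaffold protein under the plasma membrane. PDZK1/PDZK1P1 ran from 3.78 through 4.22 to 4.59, with 8 group means within 0.20 of each other and a median SD of 0.202 within a group. It changed by 0.069 with estrogen (-0.16 to 0.30) and by -0.0052 when added to calcitriol (-0.23 to 0.22).

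No receptor or target was called with calcitriol either. Of the 10 probe sets 0 were called with calcitriol against untreated and 0 for calcitriol added to estrogen, against 0.679% (144) and 0.754% (160) of all probe sets. Both agents against untreated called 0 of 10, against 1.15%, and the members' changes lay between -0.066 and 0.064. The F test over the 4 agents called 0 of 10, against 1.04%. The outermost interval ends were folds of 0.819 and 1.18 with calcitriol and of 0.802 and 1.19 for calcitriol added to estrogen. TFF1 gave 0.11 (95% interval -0.024 to 0.24) with calcitriol and was higher in 5 of 6 arrays, and ESR1 gave -0.068. The comparisons against untreated share their untreated arrays, and those on top of an agent share its arrays, so they are not independent of each other.

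Within single lines the groups of 3 arrays seldom stood clear of each other. With estrogen against untreated, IGFBP4 (higher) and ESR2 (lower) did so in GM10861, against 11.5% of all probe sets, and 0 of 10 in GM10855, against 9.21%. For estrogen added to calcitriol 0 of 10 did in GM10861 (9.07%) and 1 in GM10855 (17.4%), the second ESR1 probe set. With calcitriol against untreated 0 of 10 did in either line (14.0% in GM10861 and 11.0% in GM10855). For calcitriol added to estrogen IGFBP4 and the second ESR1 probe set were lower in GM10861 (12.1%), and 0 of 10 stood clear in GM10855 (12.3%). With both agents against untreated 0 of 10 did in GM10861 (15.2%), and ESR1 was lower in GM10855 (15.3%).

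**Figure D2:**
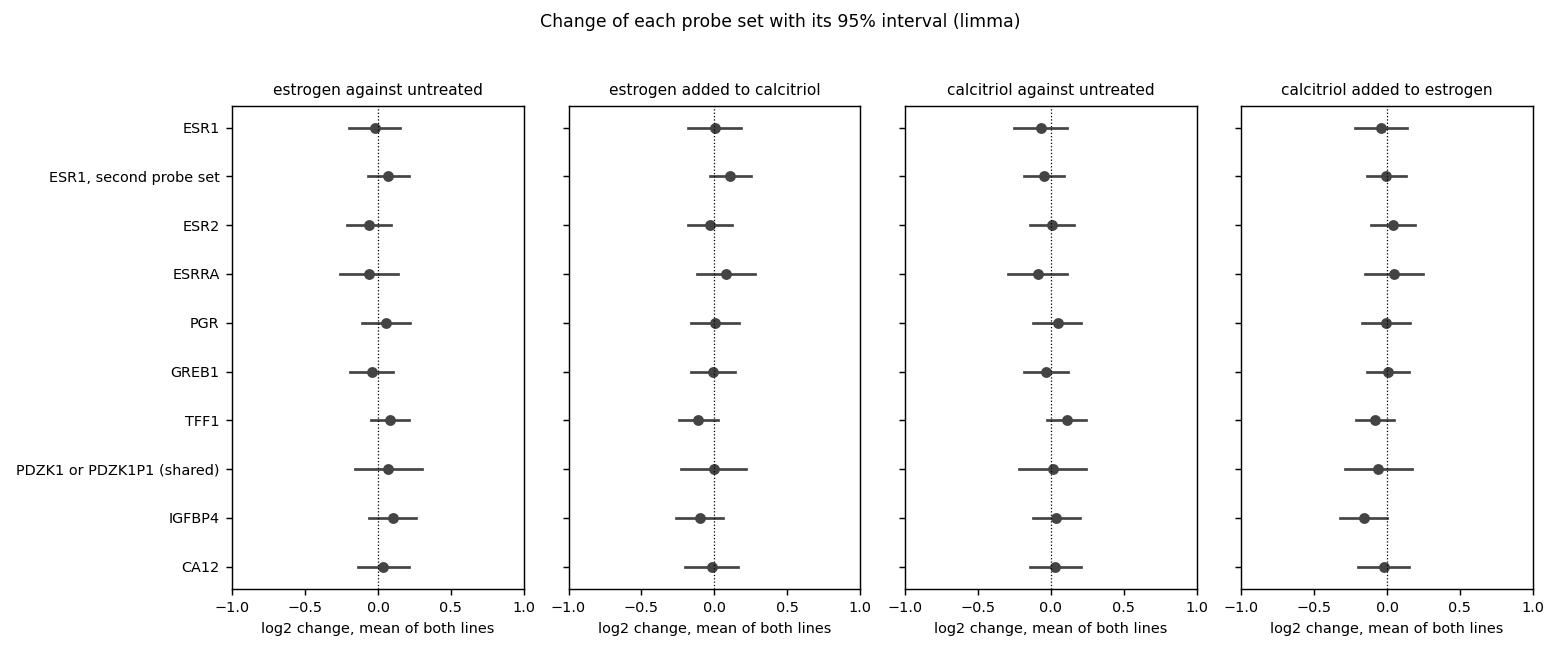
Log2 change of the 10 probe sets in 4 comparisons averaged over both lines, with 95% intervals from limma. Every interval spans 0 and lies between -0.32 and 0.30, and the one for IGFBP4 in calcitriol added to estrogen ends at 0.0016.

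Beyond the members, 4 lists were read that cover the estrogen pathway. A wider list of estrogen response genes had 41 of 45 genes measured. None was called in either estrogen comparison (0 of 41 and 0 of 41). In estrogen against untreated 26 of the 41 lay above 0 (median 0.0201, against 0.0113 over all probe sets), and for estrogen added to calcitriol 15 of 41 (median -0.0212, against 0.00188). The smallest p values against untreated were those of the small heat shock protein HSPB8 (0.32 ± 0.106, unadjusted p = 0.00663, adjusted p = 0.789 in limma), the potassium channel KCNK5 (0.17), the oncofetal antigen TPBG (0.15) and cyclin D1, CCND1 (-0.13). Added to calcitriol they were those of the LIM protein FHL2 (-0.13), the lysosomal protease CTSD (-0.10), TFF1 (-0.11) and the transcription factor MYB (0.10). Calcitriol called 0 of the 41 against untreated and 0 of 41 when added to estrogen.

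Of the coactivators, corepressors and chaperones of estrogen receptors, 23 of 29 were measured, and 21 of them lay above the array median on all arrays. Estrogen called 0 of 23 in each comparison. The smallest p belonged to the p160 coactivator NCOA2 when estrogen was added to calcitriol (0.19, adjusted p = 0.446 in limma). Calcitriol raised 1 of 23, the histone acetyltransferase KAT2B (PCAF), by 0.33 ± 0.0543 against untreated (SE, adjusted p = 0.00141, higher in 6 of 6 arrays) and by 0.35 when added to estrogen (adjusted p = 6.31e-04).

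KAT2B read 6.98, 7.04 and 7.01 with both agents, 6.79, 6.92 and 6.93 with estrogen, 7.06, 7.08 and 7.07 with calcitriol and 6.97, 6.93 and 6.92 untreated in GM10861. In GM10855 it read 7.26, 7.02 and 7.25 with both agents, 6.61, 6.53 and 6.66 with estrogen, 7.01, 7.07 and 7.20 with calcitriol and 6.55, 6.47 and 6.67 untreated. The calcitriol arrays lay above those without it in both lines, but in GM10861 only just (lowest with calcitriol 6.98, highest without it 6.97). The share of all probe sets separated in this way was not counted. The response was 0.13 in GM10861 (adjusted p = 0.911) and 0.53 in GM10855 (adjusted p = 3.25e-04), and their difference, -0.40, had an unadjusted p of 0.00129 and an adjusted p of 0.479. Fitted on the compared arrays alone, the response in GM10855 missed the threshold (adjusted p = 0.0835). With both agents against untreated, KAT2B (0.34) and NCOA2 (0.27, adjusted p = 0.023) were called. NCOA2 lost its call with arrays centred on their median (adjusted p = 0.0544), with the compared arrays alone (0.0892), and without any one of 5 arrays: untreated replicate 2 or both-agents replicate 1 of GM10855, or untreated replicate 3 or both-agents replicate 1 or 2 of GM10861 (adjusted p between 0.0697 and 0.0809).

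Of the genes that make, activate, inactivate or carry estrogen, or sense it at the membrane, 18 of 21 were measured. Estrogen called 0 of 18 in each comparison, the smallest p values against untreated being those of the steroid sulfatase STS (0.19, adjusted p = 0.789) and the sex hormone binding globulin SHBG (-0.24, adjusted p = 0.779). Calcitriol raised 2 of 18, STS and CYP19A1, against untreated and again when added to estrogen. STS frees steroids, estrone among them, from sulfate, and CYP19A1 is aromatase, which makes estrogens from androgens.

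STS rose by 1.89 ± 0.0607 with calcitriol against untreated (SE, adjusted p = 8.18e-16 in limma) and by 1.73 when calcitriol was added to estrogen. In GM10861 it read 7.60, 7.51 and 7.54 with both agents, 6.01, 6.04 and 6.07 with estrogen, 7.54, 7.55 and 7.52 with calcitriol and 5.89, 5.83 and 5.90 untreated. In GM10855 it read 7.31, 7.19 and 7.09 with both agents, 5.29, 5.32 and 5.10 with estrogen, 7.09, 7.21 and 7.13 with calcitriol and 5.16, 5.12 and 4.80 untreated. Each calcitriol array stood above every array without it. Estrogen added to calcitriol gave 0.033 over both lines (95% interval -0.093 to 0.16).

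CYP19A1 was dim. In GM10861 it read 3.55, 3.47 and 3.55 with both agents, 3.22, 3.56 and 3.27 with estrogen, 3.28, 3.61 and 3.53 with calcitriol and 3.29, 3.28 and 3.16 untreated. In GM10855 it read 4.40, 4.11 and 3.87 with both agents, 3.41, 3.71 and 3.34 with estrogen, 4.26, 4.20 and 4.28 with calcitriol and 3.57, 3.54 and 3.56 untreated. The GM10855 arrays with calcitriol all lay above those without it, while those of GM10861 overlapped. For STS and CYP19A1, too, the share of all probe sets separated in this way was not counted. The change over both lines was 0.46 ± 0.0829 with calcitriol against untreated (adjusted p = 0.00436 in limma) and 0.41 when added to estrogen (adjusted p = 0.0137). By line, calcitriol against untreated gave 0.23 in GM10861 (adjusted p = 0.874) and 0.69 in GM10855 (adjusted p = 0.00245), and their difference, -0.46, had an adjusted p of 0.67. The call for calcitriol added to estrogen was lost without estrogen replicate 3 or both-agents replicate 1 of GM10855 or estrogen replicate 1 of GM10861 (adjusted p = 0.0504, 0.0537 and 0.0569), and in a fit of the compared arrays alone (0.102).

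HSD17B8, a hydroxysteroid dehydrogenase that oxidises estradiol, was called lower in GM10855 alone when calcitriol was added to estrogen (-0.44, adjusted p = 0.0164 in limma), against -0.26 over both lines (adjusted p = 0.0569). It lost that call without estrogen replicate 1 or both-agents replicate 1 or 2 of GM10855, with array weights, and with the compared arrays alone (adjusted p between 0.0557 and 0.295).

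Some B cell markers moved with calcitriol as well. Of the 8 measured, CD79A (0.85), CR2 (0.41) and PAX5 (0.26) were called higher against untreated, where 0.679% of all probe sets were called. The same 3 were called higher when calcitriol was added to estrogen (0.78, 0.43 and 0.32, against 0.754%). No other B cell marker was called in these comparisons. The summed linear signal of the 8 in GM10861 was 3743 to 3996 with both agents, 3548 to 3719 with estrogen, 3614 to 3866 with calcitriol and 3529 to 3618 untreated. In GM10855 it was 3685 to 3718 with both agents, 2603 to 2902 with estrogen, 3601 to 3788 with calcitriol and 2559 to 2888 untreated. The epithelial, T cell, monocyte and fibroblast lists had 0 calls in these comparisons. The part of this in the values of STS, CYP19A1 and KAT2B was not tested.

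**Figure D3:**
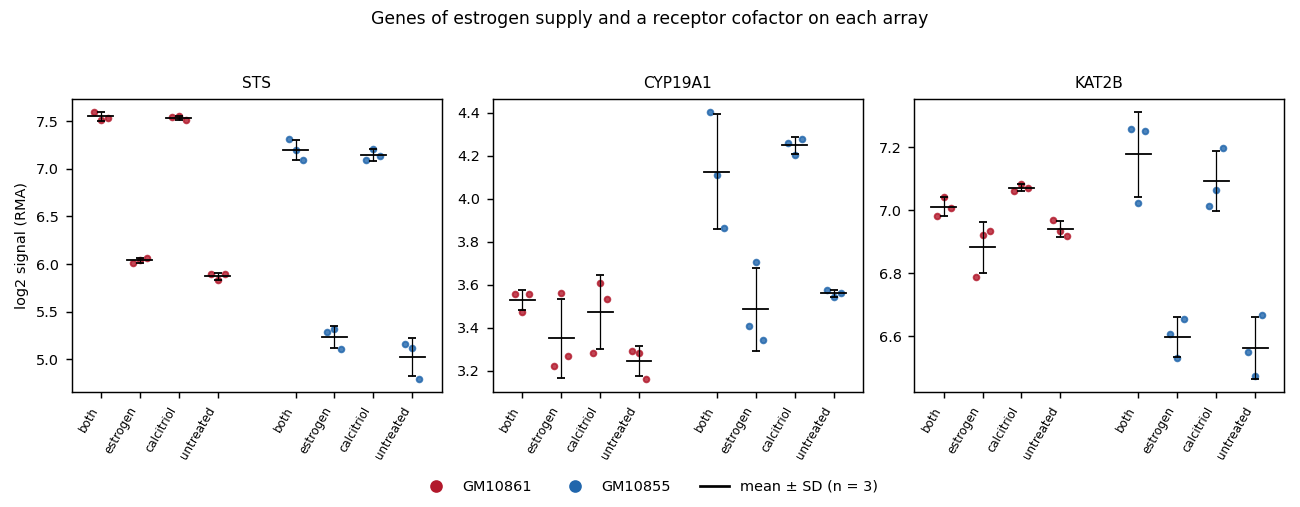
Log2 signals of STS, CYP19A1 and KAT2B on the 24 arrays, by line and agent, with the mean and SD of 3 arrays. The arrays with calcitriol stand above those without it for STS in both lines, and for CYP19A1 in GM10855 but not in GM10861.

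The fourth list held the ESRRA family, their PGC-1 coactivators and target genes of mitochondrial metabolism, with 25 of 28 measured. Estrogen called 0 of 25 in each comparison and calcitriol 0 of 25. PDK4, a kinase that restrains pyruvate oxidation, gave -0.27 with calcitriol (adjusted p = 0.0913 in limma) and -0.18 with estrogen, both against untreated (adjusted p = 0.888). When estrogen was added to calcitriol, the respiratory chain subunit UQCRC1 gave -0.15, the transcription factor NRF1 -0.12 and cytochrome c, CYCS, -0.12 (adjusted p between 0.558 and 0.601).

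The lines, unlike the agents, differed in several members, all in 1 direction. Against GM10855, 4 of 10 probe sets were lower in GM10861 and 0 higher, where 41.8% of all probe sets were called, 18.4% lower and 23.4% higher. Besides ESR2 these were TFF1 (-0.18 ± 0.045, 95% interval -0.27 to -0.086, adjusted p = 0.00229 in limma), PGR (-0.17 ± 0.057, adjusted p = 0.0195) and GREB1 (-0.14 ± 0.0499, adjusted p = 0.0256). ESR1 differed by -0.12 (-0.25 to 0.0066, adjusted p = 0.122) and CA12 by -0.08 (adjusted p = 0.31). For none of the 10 did the 12 arrays of GM10861 stand clear of the 12 of GM10855 (0 of 10, against 10.4% of all probe sets). A share of 4 in 10 is near the background, and PGR, GREB1 and ESR1 are dim. ESR2 also lay below the array median on every array.

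PGR and GREB1 did not keep the line call under every scaling. With cyclic loess between arrays PGR gave -0.133 (adjusted p = 0.0586) and GREB1 -0.0975 (0.0929), and with arrays centred on their median GREB1 gave -0.115 (0.059). GREB1 also lost it without untreated replicate 1, estrogen replicate 2 or both-agents replicate 3 of GM10855, or calcitriol replicate 1 of GM10861 (adjusted p between 0.0506 and 0.0558). ESR2 and TFF1 kept the call in each alternative that tested them, and CA12 gained one without both-agents replicate 1 of GM10861 (adjusted p = 0.0302). The filter for a mean log2 signal of at least 5 did not test ESR2, whose mean was 4.92.

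Marker genes moved with the lines too. Of the B cell markers 5 of 8 were higher in GM10861 (CD22 by 1.73, MS4A1, PAX5, BLK and CD79B by 0.14 to 0.24) and 2 lower (CR2, -0.80, and CD40, -0.52), and their summed linear signal ran from 3529 to 3996 in GM10861 and from 2559 to 3788 in GM10855. Of the epithelial markers, of the tissue in which TFF1 and PGR are best known, 1 of 9 was higher (CDH1, 0.82) and 3 lower (KRT7, KRT18 and KRT19, -0.26 to -0.18), with summed signals of 344 to 386 in GM10861 and 349 to 404 in GM10855. Of the T cell markers TRAT1 (-2.56), LCK (-0.27) and CD5 (-0.14) were lower, 3 of 8 (389 to 424 in GM10861 and 461 to 573 in GM10855), of the monocyte markers VCAN (-0.45), FCN1 (-0.17) and CD163 (-0.13), 3 of 8 (188 to 222 in GM10861 and 190 to 233 in GM10855), and of the fibroblast markers 0 of 6. The part of such differences in the members' values was not tested.

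**Figure D4:**
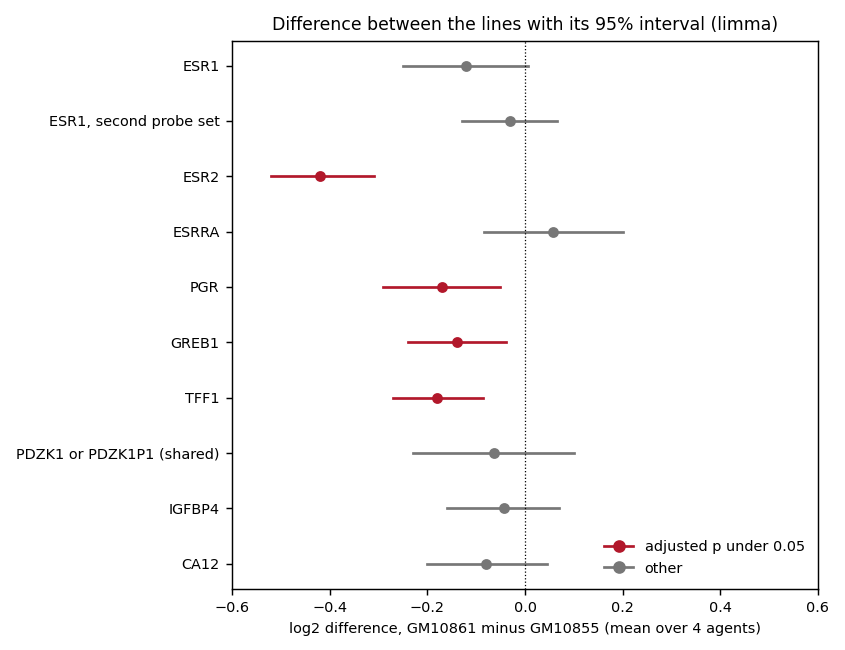
Difference between the lines, GM10861 minus GM10855, for the 10 probe sets, averaged over the 4 agents with 95% intervals from limma. ESR2 lies at -0.42, TFF1, PGR and GREB1 between -0.18 and -0.14, and the other intervals span 0.

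The lists around the members also differed between the lines in both directions, where 18.4% of all probe sets were called lower and 23.4% higher. Of the estrogen response genes 17 of 41 were lower and 5 higher in GM10861, the 17 including the members TFF1, PGR and GREB1 (median -0.0869, against -0.0178 over all probe sets). The largest were the serine protease inhibitor TFPI2 (-1.97) and the receptor-interacting corepressor NRIP1 (-1.96), followed by TPBG (-0.79) and XBP1 (-0.70), a transcription factor that plasma cells need, while MYB was higher (0.64). Also lower were SERPINA1 (-0.67), CCND1 (-0.42), CTSD (-0.38), ABAT (-0.34), BCL2 (-0.24), UGCG (-0.23), KCNK5 (-0.21), CXCL12 (-0.19), KRT19 (-0.18) and RAB31 (-0.15), and higher were FKBP4 (0.39), MYC (0.32), STC2 (0.30) and NHERF1 (0.19).

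Of the cofactors 12 of 23 were higher and 1 lower (median 0.0908), with TRIM24 at 0.70, the demethylase KDM1A at 0.59, NCOA7 at 0.44, and NCOA1, a p160 coactivator, lower at -0.59. The other calls were SAFB (0.27), HSP90AA1 (0.25), PHB2 (0.21), EP300 (0.20), PELP1 (0.18), PRMT1 (0.15), MED1 (0.12), KAT2B (0.12) and DDX5 (0.091, which turns to -0.0212 under cyclic loess). Cyclic loess also ended the calls of MED1 (0.0178, adjusted p = 0.737), PRMT1 (0.0428, 0.485) and KAT2B (0.0644, 0.154). Of the genes of estrogen supply 5 of 18 were higher and 2 lower. The lower ones were CYP1B1, an estrogen hydroxylase (-2.45), and CYP19A1 (-0.45), and the higher ones were STS (0.60) and 4 hydroxysteroid dehydrogenases, HSD17B12 (0.40), HSD17B11 (0.35), HSD17B4 (0.14) and HSD17B10 (0.13). Under cyclic loess HSD17B4 gave 0.0387 (adjusted p = 0.555) and HSD17B10 0.0204 (0.757), and each lost its call in 5 of 24 fits that left out 1 array.

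Of the ESRRA family and targets 12 of 25 were higher and 3 lower, with the mitochondrial transcription factor TFAM at 0.34, UQCRC1 at 0.27 and the medium-chain acyl-CoA dehydrogenase ACADM at -0.30. The other higher ones were IDH3A (0.26), NDUFS1 (0.25), GABPA (0.23), CYCS (0.21), PPRC1 (0.21), CS (0.20), ESRRG (0.17), OGDH (0.12), NRF1 (0.12) and ATP5F1B (0.10, which turns to -0.0152 under cyclic loess), and the other lower ones SIRT3 (-0.13) and MDH2 (-0.10). Cyclic loess also ended the calls of GABPA (0.134, adjusted p = 0.0736), CYCS (0.105, 0.0763), CS (0.0935, 0.0642) and OGDH (0.012, 0.849). Median centring ended those of SIRT3 (adjusted p = 0.0762) and MDH2 (0.177). With 1 array left out, OGDH lost its call in 8 of 24 fits, SIRT3 in 7, MDH2 in 12, ATP5F1B in 2 and, among the cofactors, DDX5 in 19.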

How the data were processed

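Per the submitters' processing notes, the authors ran RMA (Affymetrix Expression Console 1.0.1) to make the deposited log2 signals. RMA subtracts background, equalises the arrays' distributions and summarises each probe set, so changes shared by most genes are removed. Per the labels' protocols, biotinylated cDNA was hybridised. The sources used here name neither the genome build nor the arrays normalised together. Of 33297 probe sets, 19460 carried 1 symbol, 1754 several and 12083 none.

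The log2 values were tested in R 4.3.3 with limma 3.58.1, with 1 mean per group over 24 arrays (16 residual and 6.73 prior degrees of freedom). Benjamini-Hochberg adjustment ran over 21214 probe sets with a symbol, and an adjusted p below 0.05 is a call. Untreated cells were taken at 0 h, so changes against them hold the agent and 36 h together. The number of arrays limits the precision. Promoters came from RefSeq (GRCh38.p14). The members, lists and tests were chosen with earlier results of these data known. From each pathway list, calls and, in agent comparisons, some of the genes with the smallest p were named. For lists, the brightest single-symbol probe set of a gene was used. The fit was tested on simulated data that held no line differences. The changes added there were larger than any member's change with an agent, so its power for such small changes was not tested.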

Additional observations from a re-analysis of the deposited data

How the results depend on the processing

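The alternatives were all probe sets, a mean log2 signal of at least 5, median centring, cyclic loess, array weights, trended and robust eBayes, a fit to the compared arrays alone, and leaving out each array. No paired analysis was possible because the labels carry no replicate numbers, and those used here only follow the sample list. Of the members, 4 were called between the lines, 1 with the signal filter, which tested 3 of the 10 probe sets, and 2 with cyclic loess. The F test over 8 groups called 1 member, and 1 to 3 when an array was left out. TFF1 joined ESR2 without untreated replicate 2 or 3 of GM10855 or estrogen replicate 1 of GM10861, and GREB1 without untreated replicate 3 of GM10855. With the signal filter, which did not test ESR2, the F test called TFF1 (adjusted p = 0.0416). Of 215 uncalled member results, 6 of 3950 refits gave a call (lowest adjusted p = 0.0252). Under cyclic loess the line differences of ATP5F1B (0.0952) and DDX5 (0.0908) turned to -0.0152 and -0.0212, and 9 other list genes named above lost their line calls. Over the table, estrogen against untreated called 0, but 6 with trend and robust estimation, 3 with the signal filter and 0 to 3 with an array left out. Estrogen added to calcitriol called 0, but 2 with the filter, 1 with array weights and 0 to 1 with an array left out. Within GM10855 alone it called 11, but 109 with the filter, 156 with trend and robust estimation, 52 with cyclic loess, 24 with array weights, 2 over all probe sets and 0 with the compared arrays alone, and 0 to 145 with an array left out, the 145 without both-agents replicate 2. Calcitriol added to estrogen called 160, 99 with the compared arrays alone, and 99 to 139 with an array left out. Both agents against untreated called 243, 371 with trend and robust estimation and 138 with the compared arrays alone.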
